A study of Mus musculus with 55 samples.

Results

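The Hox genes were followed in 3 hindlimb muscles of the mouse, one from the foot and the others from the lower leg. This set was chosen with earlier results of these data known. Its members were every gene of the deposited expression table whose symbol is Hoxa, Hoxb, Hoxc or Hoxd followed by a number. That gave 39 genes of 24453 in the table, 11 in the Hoxa cluster, 10 in the Hoxb cluster, 9 in the Hoxc cluster and 9 in the Hoxd cluster. RNA was sequenced in 55 libraries of mdx mice, which carry a premature stop codon in the dystrophin gene Dmd and model Duchenne muscular dystrophy, and of wild-type (wt) mice. The foot muscle was the flexor digitorum brevis (FDB), which bends the toes. The lower-leg muscles were the extensor digitorum longus (EDL), a fast muscle at the front of the shin, and the soleus (SOL), a slower calf muscle. FDB gave 7 mdx libraries at 5 months, 3 mdx at 2 months, 4 wt at 5 months and 4 wt at 2 months. EDL gave 6 mdx at 5 months, 4 mdx at 2 months, 4 wt at 5 months and 4 wt at 2 months. SOL gave 7 mdx at 5 months, 4 mdx at 2 months, 4 wt at 5 months and 4 wt at 2 months. Whole muscles were dissected, so each library holds RNA of all cell types in the muscle. The labels do not say which libraries came from the same animal, and p-values measure the spread between libraries.

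Hox genes encode homeodomain transcription factors and lie in 4 clusters, in which genes are numbered by paralog group along the chromosome. In the embryonic limb, the genes with low numbers act near the trunk and those with the highest numbers act toward the tip. Hoxa11 and its paralogs pattern the lower leg, and Hoxa13 and Hoxd13 pattern the foot and the digits. Connective tissue cells of adult limbs are known to keep part of this positional expression.

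The sequences just upstream of the transcription start of 3 foot-high members and 1 leg-high member are shown because the results turn on these genes. They are the 250 bases before the RefSeq start in GRCm38.p6 (mm10), written 5′ to 3′ along the gene's strand, with every TTTAT and CCAAT on either strand in capitals; overlapping matches run together. TTTAT is a core that Hox proteins of high paralog number bind in binding assays, and CCAAT is the box bound by the factor NF-Y.
Hoxd13, chr2:74667975-74668224, plus strand: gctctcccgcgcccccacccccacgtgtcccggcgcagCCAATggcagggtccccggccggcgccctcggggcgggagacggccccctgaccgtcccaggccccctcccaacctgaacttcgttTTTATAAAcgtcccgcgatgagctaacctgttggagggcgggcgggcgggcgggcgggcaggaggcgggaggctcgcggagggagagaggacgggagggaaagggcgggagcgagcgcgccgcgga
Hoxa13, chr6:52260881-52261130, minus strand: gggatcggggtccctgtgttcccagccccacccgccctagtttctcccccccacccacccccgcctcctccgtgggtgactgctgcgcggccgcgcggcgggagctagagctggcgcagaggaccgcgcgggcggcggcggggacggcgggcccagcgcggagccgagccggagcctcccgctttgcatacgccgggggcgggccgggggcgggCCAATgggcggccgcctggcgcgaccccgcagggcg
Hoxa11, chr6:52245811-52246060, minus strand: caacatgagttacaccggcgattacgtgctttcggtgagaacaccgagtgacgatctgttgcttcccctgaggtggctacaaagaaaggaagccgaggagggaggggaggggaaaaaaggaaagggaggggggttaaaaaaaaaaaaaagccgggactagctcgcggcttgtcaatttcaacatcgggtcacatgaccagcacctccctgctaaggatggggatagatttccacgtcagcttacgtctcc
Hoxd8, chr2:74704365-74704614, plus strand: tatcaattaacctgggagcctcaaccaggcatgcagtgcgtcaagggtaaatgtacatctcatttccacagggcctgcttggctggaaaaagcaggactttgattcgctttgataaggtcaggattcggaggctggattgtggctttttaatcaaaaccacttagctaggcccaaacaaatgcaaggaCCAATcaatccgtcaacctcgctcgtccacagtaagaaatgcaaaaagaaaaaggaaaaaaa
The RefSeq table held promoters of 22 of the 39 members, 24 windows in all, against 32851 promoters of all genes. TTTAT occurred in 9 of the 24 member windows, against 37.3% of all promoters, and CCAAT in 14 of the 24, against 33.8% of all promoters. The Hoxd13 and Hoxa13 windows held 31 and 35 CG dinucleotides, and the median of all promoters was 6. The Hoxa11 window held 13, the Hoxd8 window held 6, and the 24 member windows had a median of 12.5. These counts did not follow foot and leg. The windows of Hoxd11, higher in the foot, held 2 and 20, and those of Hoxa5 and Hoxa6, lower in the foot, held 28 and 24. A match describes these letters and does not show that a factor binds there.

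Expression was deposited as RPKM, read counts scaled to gene length and to mapped reads, so levels can be compared between genes per length. Depth was recovered from the value of a single read in short genes and lay between 20.3 and 66.8 M reads (median 50.4 M). Dmd was at 1.54 to 3.91 RPKM in the 31 mdx libraries and 6.42 to 12.1 RPKM in the 24 wt libraries, with no overlap. The 12 muscle fibre markers summed to 32301 to 45206 RPKM in FDB, 60074 to 68762 RPKM in EDL and 33427 to 50031 RPKM in SOL. One FDB library of 5-month mdx mice (ns57) held 497 RPKM of summed epidermis markers, and the other 54 libraries held 1.74 to 3.91 RPKM. The numbers in the library names also differ. All 35 libraries of the other groups have numbers up to 48. The 5-month mdx libraries have numbers up to 48 in 3 FDB and 2 EDL libraries, numbers of 54 and above in 4 FDB, 4 EDL and 3 SOL libraries, and numbers between these in 4 SOL libraries. The sources used here do not say what these numbers stand for. Estimated depth in mdx at 5 months followed them. In SOL it was 21.26 to 25.81 M reads in libraries below 54 and 44.66 to 60.51 M reads in the others. In EDL it was 33.88 and 40.67 M reads in the lower-numbered libraries and 56.79 to 61.98 M reads in the others. In FDB the libraries numbered 54 and above were also the deeper ones, without overlap. The part of depth in the differences between these sets was not tested. In mdx at 5 months the libraries numbered 54 and above did not overlap the others of their muscle for 17 of the 33 members tested below in FDB (15 above and 2 below), 6 in EDL (5 above and 1 below) and 10 in SOL (0 above and 10 below). The share of all genes tested that separated in this way was not counted. These counts therefore do not show whether the members differ from other genes in this respect. Values of both sets are given for some of these members, among them Hoxd9, Hoxd8 and Hoxc9.

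The foot muscle differed most from the leg muscles in genes at the 5′ end of the clusters, with the highest paralog numbers. Hoxd13 was at 1.19 to 5.27 RPKM in the 18 FDB libraries, with a median of 2.93 RPKM. It was listed at 0 in 34 of the 37 lower-leg libraries and reached at most 0.0118 RPKM in the others. Every FDB library lay above every leg library, and the leg values above 0 were in 1 wt EDL library of each age and 1 mdx SOL library. Hoxa13 was at 7.77 to 11.9 RPKM in FDB (median 10.4 RPKM) and 0.287 to 2.14 RPKM in the leg (median 0.581 RPKM). The lowest FDB library was above the highest leg library, and the mean was 12.2 times as high. Hoxa11, which patterns the lower leg in the embryo, was at 4.96 to 7.11 RPKM in FDB and 0.511 to 3.27 RPKM in the leg (medians 6.35 and 1.16 RPKM). Its FDB libraries again lay above all leg libraries, by 3.60 times in the means.

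On the log2(RPKM + 0.1) scale, the fitted difference of FDB minus the mean of EDL and SOL was 4.71 ± 0.04 (SE) for Hoxd13, 3.66 ± 0.06 for Hoxa13 and 1.99 ± 0.06 for Hoxa11. The tests were limma fits over the 16157 genes that averaged 0.05 RPKM or more, with Benjamini-Hochberg adjustment. Adjusted p was 9.78e-57 for Hoxd13, 6.29e-43 for Hoxa13 and 6.01e-33 for Hoxa11. By size of difference Hoxd13 ranked 8 and Hoxa13 ranked 29 of the 16157 genes. The value for Hoxd13 depends on the pseudocount, because the leg level is near 0, and was 1.85 with a pseudocount of 1. The median of all genes tested was itself 0.29 higher in FDB, so Hoxd13 stood 4.42, Hoxa13 3.36 and Hoxa11 1.69 above the median gene.

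**Figure D1:**
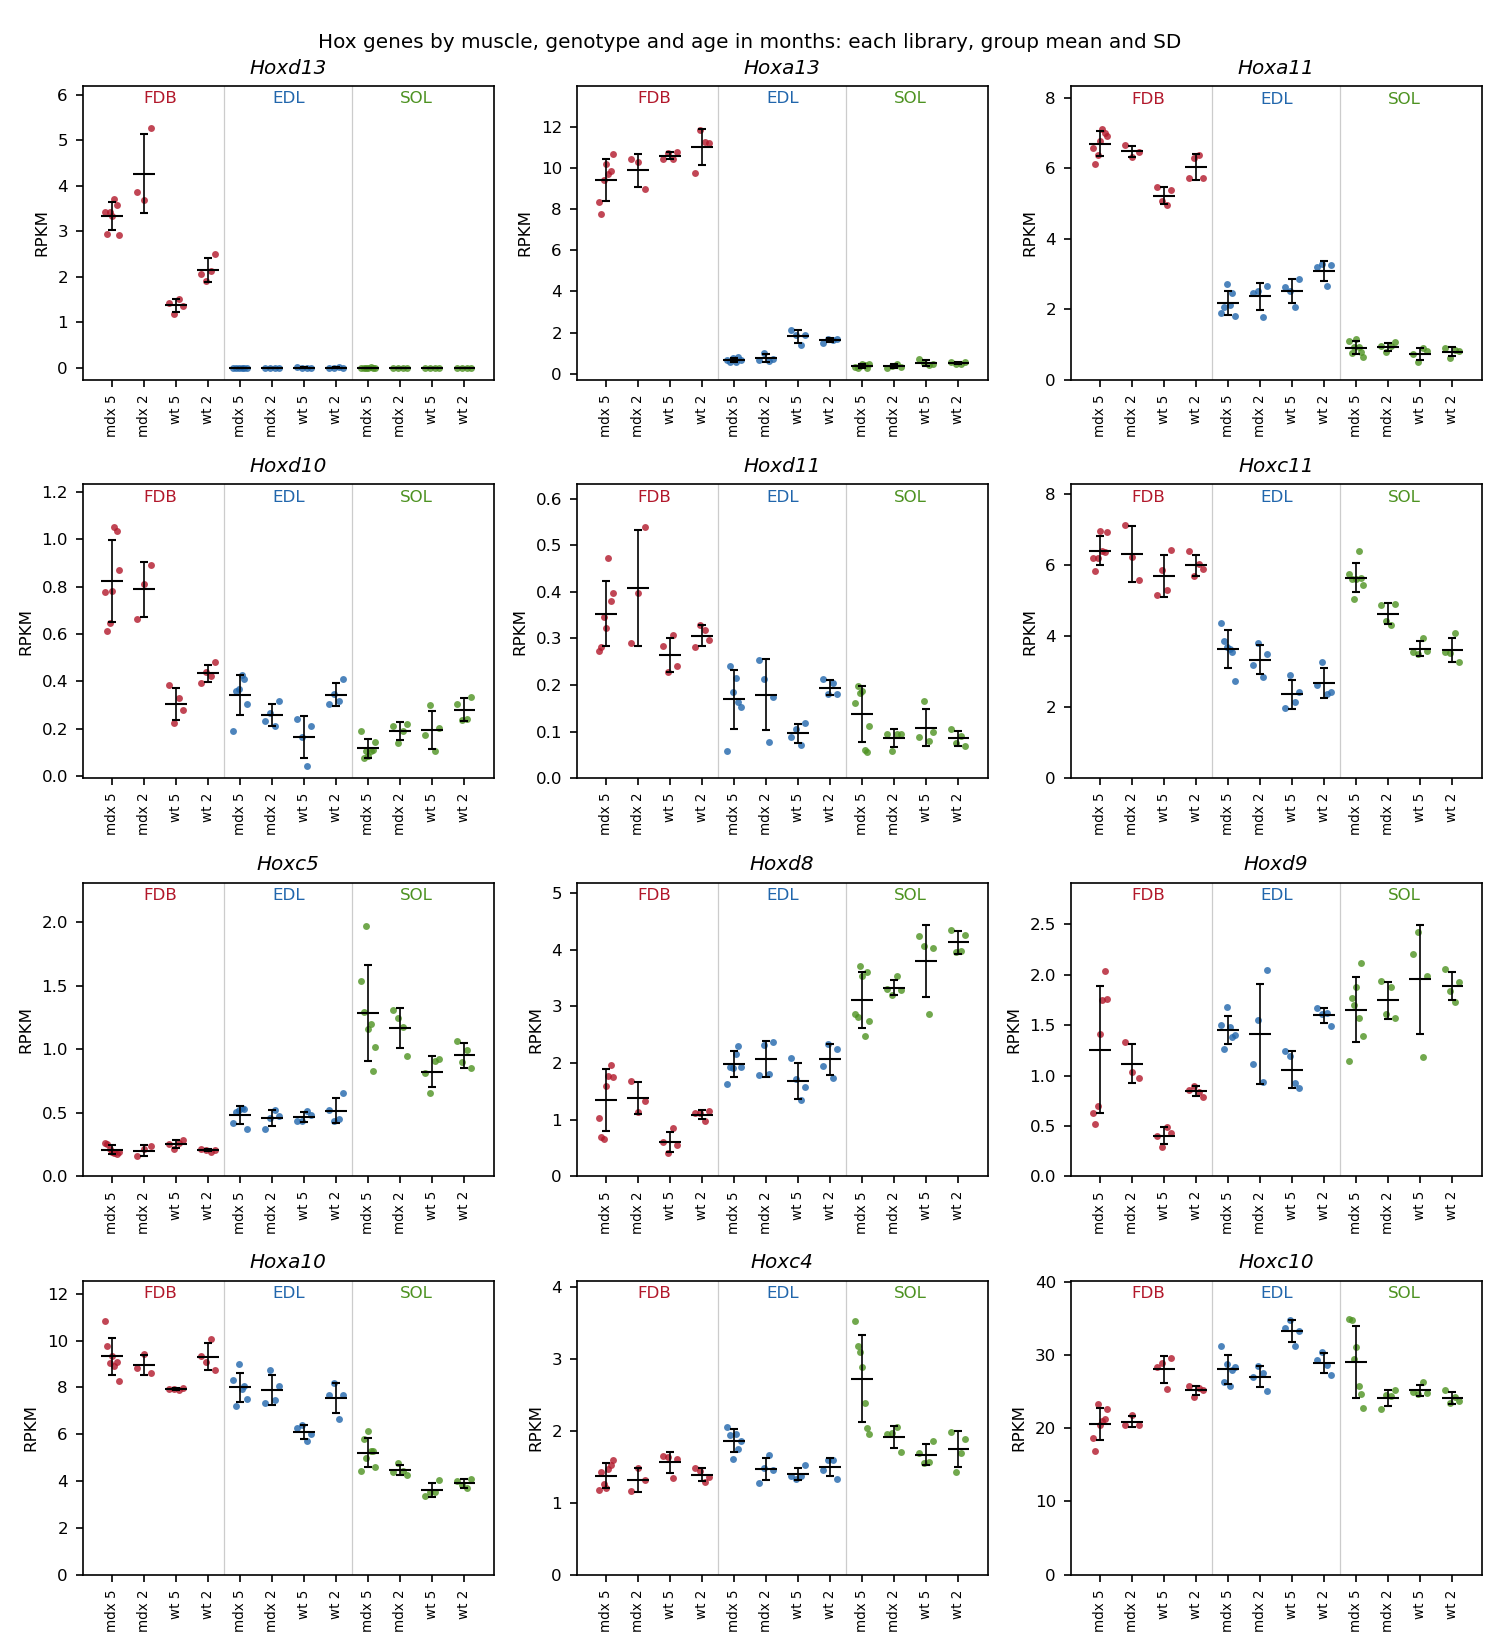
RPKM of 12 Hox genes in every library (points), with the group mean and SD (black), for FDB, EDL and SOL in mdx and wt mice at 5 and 2 months. Hoxd13 is near 0 in all leg libraries, and Hoxa13 and Hoxa11 are highest in FDB, whereas Hoxc5 and Hoxd8 are lowest in FDB and highest in SOL.

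Of the 33 members that passed the filter on low values, 10 were higher and 17 lower in FDB than in the leg, and 6 did not pass the threshold. Of all genes tested 83.6% passed in this comparison, 64.5% as higher and 19.1% as lower in FDB, so the members' total was near the background and their split leaned to lower. After median-of-ratios scaling the split was 8 higher and 23 lower, and after quantile normalization it was 8 higher and 25 lower. Under each of these scalings 78.4% of all genes tested passed. All FDB libraries lay above all leg libraries for 3 members (Hoxd13, Hoxa13 and Hoxa11), as for 5.28% of all genes tested, and below them for Hoxc5 alone, as for 1.69% of all genes tested.

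Further members with high paralog numbers were also higher in the foot, by smaller amounts. Hoxd10 was at 0.223 to 1.05 RPKM in FDB and 0.0416 to 0.428 RPKM in the leg, a difference of 1.0 ± 0.08 (adjusted p = 3.42e-15). Hoxd11 was at 0.227 to 0.539 RPKM in FDB and 0.0565 to 0.254 RPKM in the leg, a difference of 0.92 ± 0.08. Hoxc11 was at 5.14 to 7.12 RPKM in FDB and 1.98 to 6.39 RPKM in the leg, a difference of 0.76 ± 0.04. Of the 18 FDB libraries, 12 lay above every leg library for Hoxd10, 16 for Hoxd11 and 4 for Hoxc11, so the ranges overlapped for all 3 genes. Hoxa10 was at 7.88 to 10.8 RPKM in FDB and 3.38 to 9.0 RPKM in the leg, and Hoxb9 at 0.229 to 0.868 RPKM in FDB and 0.0901 to 0.571 RPKM in the leg. Their differences were each 0.65 (SE 0.03 for Hoxa10 and 0.10 for Hoxb9). Hoxa9 and Hoxa7 passed as higher by 0.15 and 0.09, which is less than the shift of the median gene, and both reversed under the other scalings.

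Members with low and middle paralog numbers were mostly lower in the foot. Hoxc5 was at 0.159 to 0.288 RPKM in FDB and 0.370 to 1.97 RPKM in the leg, a difference of −1.35 ± 0.06 (adjusted p = 1.27e-24). Its exons overlap those of Hoxc10 on the same strand (chr15:102967443-103017429 and chr15:102966796-102971893 in mm10), so reads of the pair may have been split between them. Hoxd8 was at 0.419 to 1.96 RPKM in FDB and 1.35 to 4.35 RPKM in the leg, a difference of −1.27 ± 0.09 (adjusted p = 4.57e-18). Hoxc6 differed by −1.08 and Hoxd4 by −1.02, and Hoxd9, Hoxb4, Hoxb6 and Hoxd3 by −0.86, −0.83, −0.69 and −0.67. Exons of Hoxd3 and Hoxd4 also overlap on the same strand (chr2:74711927-74748442 and chr2:74711929-74729160), so these members may share reads. In all, 10 members have exons that overlap another gene of the expression table on either strand. The FDB median of Hoxc6 was 0.973 RPKM and its leg median 2.18 RPKM. For Hoxd4 the medians were 0.472 RPKM in FDB and 1.05 RPKM in the leg, and for Hoxd9 they were 0.848 RPKM in FDB and 1.61 RPKM in the leg. The other members that were lower were Hoxb5, Hoxa6, Hoxb2, Hoxa4, Hoxc4, Hoxb3, Hoxa3, Hoxa5 and Hoxc10, with differences between −0.49 and −0.22. Hoxb7, Hoxb8, Hoxc8 and Hoxc9 were among those that did not pass the threshold.

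The differences followed position in the cluster. Of the 21 tested members with paralog numbers 1 to 8, 15 were lower in FDB, 1 was higher and 5 did not pass, and all 21 lay below the median gene. Of the 12 tested members numbered 9 to 13, 9 were higher, 2 lower (Hoxd9 and Hoxc10) and 1 did not pass. Of all genes tested 64.5% were higher and 19.1% lower, so the count of higher members among these 12 was near the background. Against the median gene 8 of the 12 lay above and 4 below. The 9 include Hoxa9, which lay below the median gene and reversed under both other scalings. The median difference was −0.34 for numbers 1 to 8 and 0.71 for numbers 9 to 13. Across genes, which are not independent replicates and share the same libraries, Spearman's rho between paralog number and the difference was 0.59 over 33 members. Within clusters rho was 0.67 over 11 Hoxa genes, 0.60 over 8 Hoxb genes, 0.75 over 7 Hoxc genes and 0.71 over 7 Hoxd genes.

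**Figure D2:**
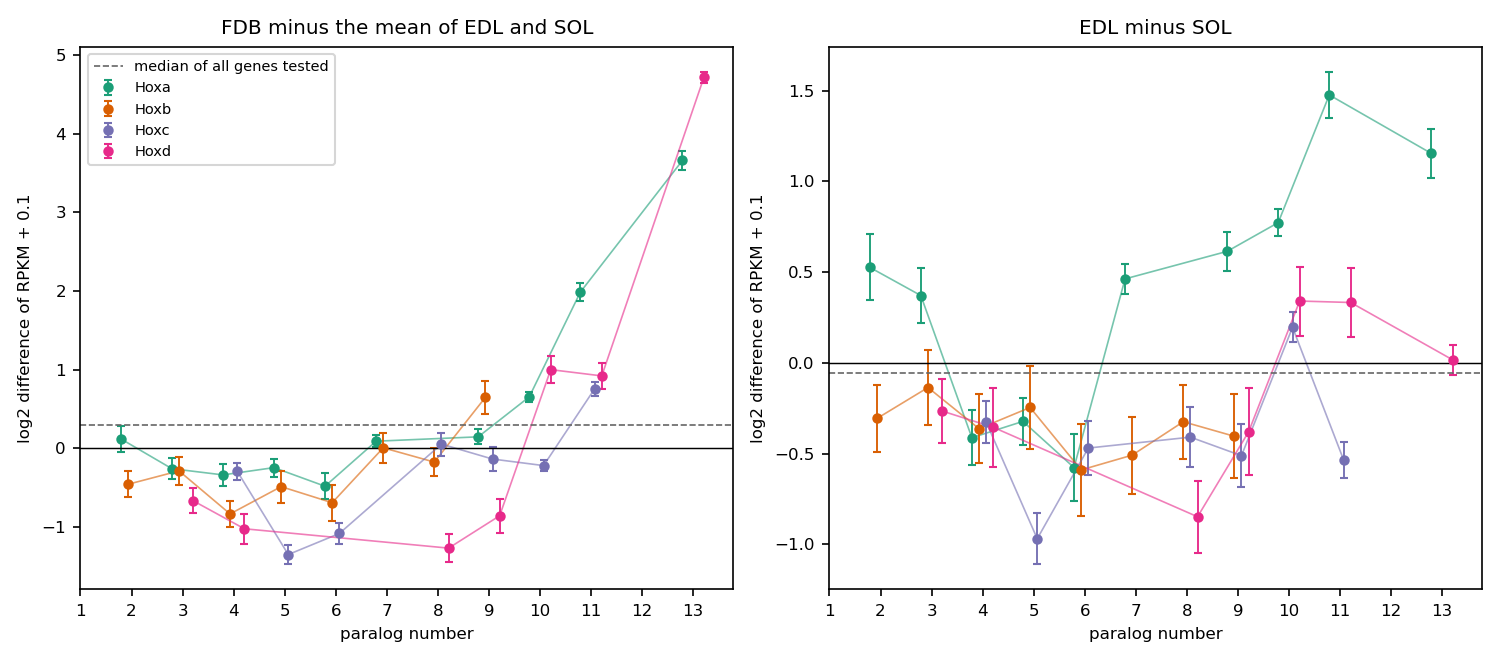
Difference on the log2(RPKM + 0.1) scale against paralog number for FDB minus the mean of EDL and SOL (left) and EDL minus SOL (right), with 95% intervals, coloured by cluster; the dashed line is the median of all genes tested. On the left Hoxd13 and Hoxa13 stand apart at 4.71 and 3.66, and on the right Hoxa11 and Hoxa13 reach 1.48 and 1.15.

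The leading foot differences held in each genotype and age. FDB minus leg was 5.09 for Hoxd13 in mdx at 5 months, 5.43 in mdx at 2 months, 3.86 in wt at 5 months and 4.47 in wt at 2 months. Hoxa13 differed by 3.96, 3.97, 3.29 and 3.41 in the same order of groups, and Hoxa11 by 2.18, 2.04, 1.86 and 1.86. Of the 33 tested members, 7 passed as higher in all 4 conditions (Hoxa10, Hoxa11, Hoxa13, Hoxc11, Hoxd10, Hoxd11 and Hoxd13), as did 38.6% of all genes tested. Under both other scalings 5 of the 7 kept these calls. Hoxd10 did not pass in wt at 5 months (adjusted p = 0.0503 with median-of-ratios scaling and 0.456 with quantile normalization) or in wt at 2 months (0.532 and 0.560), and Hoxd11 did not pass in wt at 2 months with quantile normalization (0.0770). Another 8 passed as lower in all 4 (Hoxa6, Hoxb4, Hoxb6, Hoxc5, Hoxc6, Hoxd3, Hoxd4 and Hoxd8), against 8.52% of all genes tested, and all 8 kept these calls under both other scalings. With 5-month mdx limited to the libraries numbered 54 and above, Hoxb6 in mdx at 5 months (adjusted p = 0.209) and Hoxa6 in mdx at 2 months (0.0525) did not pass. In all, 10 members were higher and 17 lower in mdx at 5 months, where 57.5% of all genes tested were higher and 17% lower (74.5% together). In mdx at 2 months 10 were higher and 10 lower, against 49.8% and 13.8% of all genes (63.5% together). In wt at 5 months 8 were higher and 15 lower, against 53.3% and 15% (68.3% together). In wt at 2 months 8 were higher and 12 lower, against 54.5% and 14.2% (68.7% together). After median-of-ratios scaling the splits were 8 and 20, 8 and 17, 6 and 20, and 6 and 20, in the same order of conditions, and after quantile normalization 8 and 22, 7 and 17, 6 and 23, and 5 and 23. Of all genes tested 68.1%, 54.5%, 61.1% and 61.2% passed with the former and 69.2%, 56.7%, 59.6% and 60.7% with the latter. With only the mdx libraries numbered 54 and above, the split in mdx at 5 months was 13 higher and 11 lower (73.5% of all genes). Without them it was 8 and 19 (64.9%). Of the 10 higher and 17 lower calls there, 7 and 11 held under both scalings and both library sets. In the libraries numbered 54 and above Hoxd9 overlapped, at 1.41 to 2.04 RPKM in FDB, 1.38 to 1.68 RPKM in EDL and 1.40 to 2.12 RPKM in SOL.

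Each leg muscle by itself gave the same direction for Hoxa13, Hoxa11 and Hoxc5. Hoxa13 was 3.08 higher in FDB than in EDL and 4.24 higher in FDB than in SOL, and Hoxa11 was 1.25 and 2.72 higher. Hoxc5 differed by −0.86 against EDL and −1.83 against SOL. Hoxa10 was not among the 7 members higher in FDB than in EDL in all 3 scalings. Hoxb9 was not among the 8 members higher in FDB than in SOL in all 3 scalings. The means in FDB, EDL and SOL were 8.88, 7.39 and 4.30 RPKM for Hoxa10 and 0.420, 0.177 and 0.269 RPKM for Hoxb9. Against EDL, FDB was higher for 10 members and lower for 15, where 64% of all genes tested were higher and 18.2% lower (82.3% together). Against SOL it was higher for 11 and lower for 19, where 60.4% were higher and 20.7% lower (81.1% together). Median-of-ratios scaling gave 7 and 22 against EDL and 8 and 21 against SOL, and quantile normalization 7 and 23 against EDL and 8 and 22 against SOL. Of all genes tested 77.7% and 76.2% passed with the former, against EDL and SOL, and 77.8% and 76.9% with the latter.

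Markers of connective tissue and nerve reached higher sums in the foot libraries. In bulk RNA, fewer cells of a type and less RNA per cell cannot be told apart. The 11 fibroblast and fibroadipogenic markers, all detected in every library, summed to 666 to 3009 RPKM in FDB, 260 to 1577 RPKM in EDL and 167 to 1210 RPKM in SOL. The 6 tendon markers summed to 226 to 866 RPKM in FDB, 21.1 to 378 RPKM in EDL and 11 to 266 RPKM in SOL. Cartilage and bone markers summed to 35.2 to 185 RPKM in FDB, 2.67 to 52.4 RPKM in EDL and 4.92 to 47.2 RPKM in SOL. The 6 Schwann cell markers summed to 91.6 to 411 RPKM in FDB, 29.0 to 99.7 RPKM in EDL and 23.1 to 55.5 RPKM in SOL. The part of these markers in the Hox differences was not tested.

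The members differed widely in level. Hoxc10 was the most abundant, at 16.9 to 29.5 RPKM in FDB and 22.6 to 34.9 RPKM in the leg, which was 24.0 to 35.6% of all Hox RPKM in FDB and 34.9 to 47.9% in the leg. Hoxa10, Hoxa11, Hoxa13 and Hoxc11 followed in FDB with medians of 8.96, 6.35, 10.4 and 6.18 RPKM. All 39 members summed to 70.1 to 85.4 RPKM in FDB and 59.7 to 90.4 RPKM in the leg, so the summed level overlapped while its make-up differed. Paralog group 13 took 14.6 to 17.6% of the sum in FDB and 0.338 to 3.07% in the leg. Paralog group 11 took 13.5 to 17.4% in FDB and 6.4 to 10.5% in the leg. The Hoxa cluster took 40.7 to 46.9% of the sum in FDB, 29.0 to 35.1% in EDL and 18.4 to 25.4% in SOL, with no overlap between muscles.

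**Figure D3:**
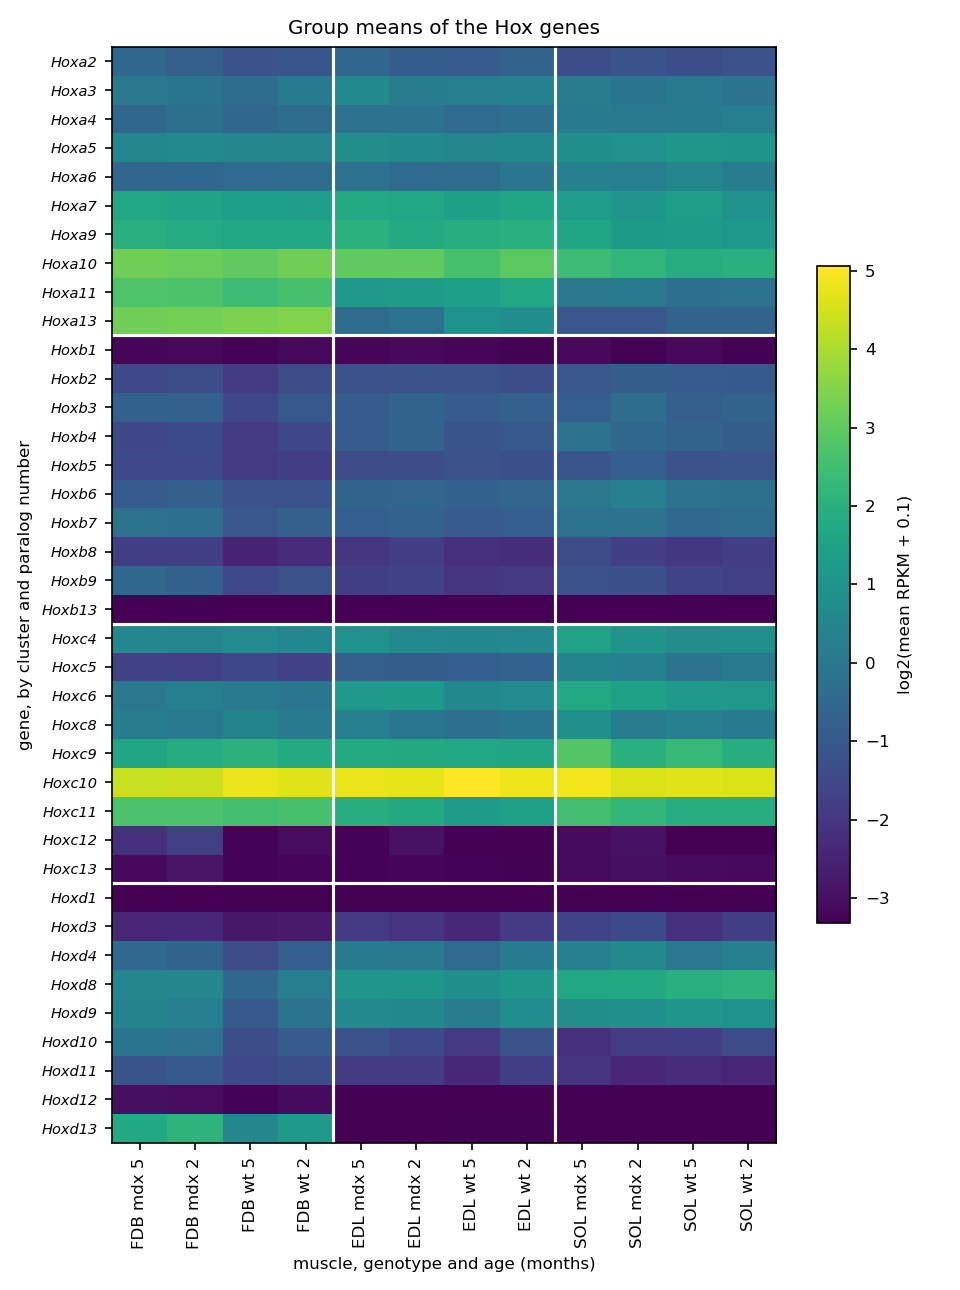
Group means of the Hox genes as log2(mean RPKM + 0.1), with genes in cluster and paralog order down the side and the 12 groups along the bottom, FDB to the left. Hoxa13, Hoxa11 and Hoxd13 are bright in the FDB columns, and Hoxc10 is bright in all columns.

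Another 6 members had a mean under 0.05 RPKM over the 55 libraries and were not tested: Hoxb1, Hoxb13, Hoxc12, Hoxc13, Hoxd1 and Hoxd12. Hoxd12 was listed at 0 in all 18 EDL and all 19 SOL libraries and in 3 of 18 FDB libraries, with at most 0.0455 RPKM. Hoxc12 was at 0.0599 to 0.203 RPKM in mdx FDB at 5 months and 0.193 to 0.205 RPKM in mdx FDB at 2 months. In wt FDB it reached at most 0.0212 RPKM at 5 months and 0.0401 RPKM at 2 months, below all mdx FDB libraries. Hoxb13 was above 0 in 1 FDB library only, and Hoxd1 in 1 FDB and 1 SOL library. Levels this low correspond to few reads.

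EDL and SOL, both in the lower leg, also differed. EDL was higher than SOL for 10 members and lower for 19, where 27.3% of all genes tested were higher and 40.7% lower (68% together), and the same split held under both other scalings. Of all genes tested 69% passed with median-of-ratios scaling and 68.8% with quantile normalization. Hoxa11 was at 1.79 to 3.27 RPKM in EDL, with a median of 2.52 RPKM, and had a median of 0.859 RPKM in SOL. Every EDL library lay above every SOL library, as for 3.44% of all genes tested. Its difference was 1.48 ± 0.06 (adjusted p = 1.18e-25). Hoxa13 followed at 1.15 ± 0.07, Hoxa10 at 0.77 ± 0.04 and Hoxa9 at 0.61 ± 0.05. Higher values in EDL were mainly those of the Hoxa cluster, with 7 of 11 tested members, against 0 of 8 in Hoxb, 1 of 7 in Hoxc and 2 of 7 in Hoxd.

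Lower values in EDL than in SOL were led by Hoxc5 and Hoxd8. Hoxd8 had a median of 1.94 RPKM in EDL and 3.53 RPKM in SOL, with every EDL library below every SOL library, as for 5.61% of all genes tested. The differences were −0.97 ± 0.07 for Hoxc5 and −0.85 ± 0.10 for Hoxd8. Hoxb6, Hoxa6, Hoxc11 and Hoxc9 followed at −0.59, −0.58, −0.53 and −0.51. Of the 33 tested members, 15 had the mean order SOL, then EDL, then FDB, and 6 had the order FDB, then EDL, then SOL. The 6 were Hoxa10, Hoxa11, Hoxa13, Hoxd10, Hoxd11 and Hoxd13. Hoxc11 instead had its highest values in FDB, then SOL, then EDL.

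In the foot, Hoxd genes differed between genotypes. In FDB at 5 months Hoxd13 was at 2.91 to 3.71 RPKM in mdx (median 3.42 RPKM), against 1.19, 1.37, 1.43 and 1.52 RPKM in wt. At 2 months it was at 3.68, 3.86 and 5.27 RPKM in mdx, against 1.90, 2.06, 2.14 and 2.51 RPKM in wt. All mdx libraries lay above all wt libraries at both ages. The difference was 1.22 ± 0.08 at 5 months (adjusted p = 1.21e-16) and 0.94 ± 0.09 at 2 months (adjusted p = 1.41e-09), and it passed in the limma fit under both other scalings. The share of all genes tested whose mdx and wt libraries did not overlap was not counted, here or for the other members.

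Hoxd10, next to Hoxd11 in the same cluster, was at 0.612 to 1.05 RPKM in mdx FDB at 5 months (median 0.783 RPKM), against 0.223, 0.280, 0.332 and 0.384 RPKM in wt. The difference was 1.19 ± 0.18 (adjusted p = 1.94e-07). At 2 months Hoxd10 was at 0.665, 0.811 and 0.893 RPKM in mdx and 0.394, 0.425, 0.438 and 0.481 RPKM in wt, a difference of 0.73 ± 0.21. That call did not pass with median-of-ratios scaling (adjusted p = 0.0674) or quantile normalization (adjusted p = 0.132), nor without 1 mdx library (0.65, adjusted p = 0.0591), although the libraries did not overlap.

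Hoxd9 and Hoxd8 rose in mdx FDB at 5 months by 1.29 ± 0.22 and 0.97 ± 0.18. Hoxd9 was at 1.41 to 2.04 RPKM in the 4 mdx libraries with numbers of 54 and above and 0.520 to 0.694 RPKM in the 3 with lower numbers, against 0.290, 0.404, 0.426 and 0.494 RPKM in wt. Hoxd8 was at 1.60 to 1.96 RPKM and 0.665 to 1.03 RPKM in the same sets of mdx libraries, against 0.419, 0.555, 0.606 and 0.853 RPKM in wt. Without the libraries numbered 54 and above, Hoxd9 was 0.52 higher in mdx (adjusted p = 0.0266) and Hoxd8 was 0.35 higher (adjusted p = 0.0776), so the Hoxd8 call was lost. Hoxd13 was 1.19 higher without them (adjusted p = 5.59e-11). In FDB at 5 months the Schwann cell markers summed to 116 to 411 RPKM in mdx and 91.6 to 152 RPKM in wt, and the fibroblast and fibroadipogenic markers to 1689 to 2074 RPKM in mdx and 666 to 893 RPKM in wt. The 6 macrophage markers summed to 355 to 705 RPKM in mdx and 78.4 to 121 RPKM in wt. The part of these markers in the differences was not tested.

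Counted over members, mdx was higher for 14 and lower for 2 in FDB at 5 months, where 50.6% of all genes tested were higher and 7.95% lower (58.6% together). At 2 months mdx was higher for 2 and lower for 1, where 23.2% of all genes were higher and 3.63% lower (26.9% together). The median gene was 0.26 higher in mdx FDB at 5 months and 0.17 higher at 2 months, and the split depended on scaling. At 5 months it was 10 higher and 9 lower with median-of-ratios scaling (58.5% of all genes passing). With quantile normalization it was 4 higher and 10 lower (56%). At 2 months it was 1 higher and 2 lower with either scaling (20.2% and 20.7% of all genes). The split at 5 months also depended on the library numbers. It was 5 higher and 3 lower without those of 54 and above (48.2% of all genes). With only those in the 5-month mdx groups it was 22 higher and 3 lower (67.1%). The share of all genes that passed thus moved with the library numbers too. The members that passed in one direction in all 3 scalings in FDB at 5 months were Hoxd8, Hoxd9, Hoxd10 and Hoxd13, higher, and Hoxc9 and Hoxc10, lower, and of these Hoxd8 was lost without the libraries numbered 54 and above.

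Hoxc10, abundant in all muscles, fell in mdx FDB to 16.9 to 23.2 RPKM at 5 months (median 21 RPKM), against 25.4, 28.3, 28.9 and 29.5 RPKM in wt. At 2 months it was at 20.4, 20.5 and 21.8 RPKM in mdx and 24.3, 25.2, 25.5 and 25.7 RPKM in wt. No mdx library reached the wt range at either age. The differences were −0.45 ± 0.08 and −0.27 ± 0.09 (adjusted p = 2.87e-06 and 0.0290). In EDL it was at 25.7 to 31.2 RPKM in mdx at 5 months and 31.1, 33.2, 33.7 and 34.8 RPKM in wt, a difference of −0.25 ± 0.08. In SOL at 5 months the call was in the other direction, with means of 29.0 ± 4.86 RPKM in mdx (SD, n = 7) and 25.1 ± 0.740 RPKM in wt (n = 4), a difference of 0.19 ± 0.08 (adjusted p = 0.0318). The 4 mdx SOL libraries with numbers below 54 were at 29.4 to 34.9 RPKM and the 3 with higher numbers at 22.7 to 25.7 RPKM. Without the higher numbers the difference was 0.37 (adjusted p = 1.20e-05), with only them in mdx it was −0.05 (adjusted p = 0.443), and the call was also lost with median-of-ratios scaling (0.425) and quantile normalization (0.799).

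In the leg, Hoxa13 was lower in mdx EDL at both ages. In EDL at 5 months it was at 0.577 to 0.826 RPKM in mdx (median 0.659 RPKM), against 1.41, 1.86, 1.88 and 2.14 RPKM in wt. At 2 months it was at 0.636, 0.687, 0.700 and 1.03 RPKM in mdx, against 1.49, 1.63, 1.71 and 1.71 RPKM in wt. No mdx library overlapped the wt range. The differences were −1.30 ± 0.13 (adjusted p = 6.32e-12) and −1.02 ± 0.14 (adjusted p = 6.02e-08). In SOL it was at 0.287 to 0.477 RPKM in mdx at 5 months, against 0.410, 0.480, 0.516 and 0.729 RPKM in wt, a difference of −0.38 ± 0.12 (adjusted p = 0.00680). These ranges overlapped, and the call did not pass when the mdx libraries were limited to those numbered 54 and above (−0.31, adjusted p = 0.0678), without the wt library ns29 (−0.25, adjusted p = 0.101) or with a pseudocount of 1 (adjusted p = 0.0622). At 2 months the SOL difference was −0.40 ± 0.14 (adjusted p = 0.0213), and it was lost without any 1 of ns17 and ns20 (mdx) or ns25 and ns28 (wt), with adjusted p of 0.0517 to 0.105, and with a pseudocount of 1 (adjusted p = 0.135). In FDB, where Hoxa13 is abundant, mdx minus wt was −0.17 ± 0.12 at 5 months and −0.15 ± 0.15 at 2 months and did not pass. The 3 mdx FDB libraries at 5 months with numbers up to 48 were at 7.77 to 9.40 RPKM. These lay below every wt FDB library of that age (10.43 to 10.76 RPKM). The 4 numbered 54 and above were at 9.70 to 10.67 RPKM. Against wt these sets differed by −0.32 and −0.07, so the pooled FDB value covers unlike sets. In EDL at 5 months the fibroblast and fibroadipogenic markers summed to 671 to 1146 RPKM in mdx and 260 to 373 RPKM in wt, and the macrophage markers to 117 to 476 RPKM in mdx and 24.0 to 57.1 RPKM in wt. In SOL at 5 months the fibroblast and fibroadipogenic markers summed to 618 to 929 RPKM in mdx and 167 to 335 RPKM in wt, and the macrophage markers to 150 to 411 RPKM in mdx and 12.9 to 39 RPKM in wt. The part of these markers in the differences between mdx and wt leg muscles was not tested.

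Over members, EDL at 5 months had 13 higher and 2 lower in mdx, where 56.9% of all genes tested were higher and 7.56% lower (64.5% together). EDL at 2 months had 2 higher and 2 lower, against 38.9% and 7.72% of all genes (46.7% together). SOL at 5 months had 12 higher and 2 lower, against 48.7% and 10% (58.7% together), and at 2 months 2 higher and 1 lower, against 29.9% and 6.49% (36.4% together). The median gene was higher in mdx by 0.32 and 0.19 in EDL and by 0.24 and 0.14 in SOL, at 5 and 2 months. The split turned with the scaling: with quantile normalization EDL had 0 higher and 12 lower at 5 months and 0 higher and 15 lower at 2 months, and SOL had 2 higher and 14 lower at 5 months and 0 higher and 5 lower at 2 months. With median-of-ratios scaling the counts were 2 higher and 5 lower in EDL at 5 months, 0 higher and 6 lower in EDL at 2 months, 5 higher and 7 lower in SOL at 5 months and 0 higher and 4 lower in SOL at 2 months. Of all genes tested 53.3%, 45.1%, 56.2% and 36.4% passed with quantile normalization, in EDL then SOL, each at 5 and 2 months. With median-of-ratios scaling 56.3%, 44%, 55.1% and 37.2% of all genes passed, in the same order. The members that passed the same way in all 3 scalings were Hoxa13 and Hoxc10, lower, in EDL at 5 months, and Hoxa13 and Hoxa11, lower, in EDL at 2 months. In SOL they were Hoxa10 and Hoxc11, higher, and Hoxa13 and Hoxd10, lower, at 5 months, and Hoxa13, lower, at 2 months. Of the SOL calls at 5 months, Hoxa10 and Hoxc11 passed also without the libraries numbered 54 and above and with only those in mdx. Hoxa13 did not pass with only those, as given above, and Hoxd10 passed in neither (adjusted p = 0.0558 without them and 0.0987 with only them) and was lost without any 1 of 8 libraries (adjusted p up to 0.249). Hoxc11 in SOL was at 5.04 to 6.39 RPKM in mdx at 5 months and 3.5, 3.56, 3.57 and 3.95 RPKM in wt, with no overlap. Hoxa10 in SOL was at 4.41 to 6.14 RPKM in mdx and 3.38, 3.51, 3.55 and 4.05 RPKM in wt. The SOL values of Hoxc9 differed between library numbers in mdx at 5 months, with 7.75 to 10.7 RPKM in the 4 libraries of lower number and 3.84 to 4.16 RPKM in the 3 of higher number, against 4.59 to 4.99 RPKM in wt.

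The foot minus leg difference itself differed between genotypes for 13 members, 7 higher in mdx and 6 lower, where 9.03% of all genes tested were higher and 12.3% lower (21.3% together). Median-of-ratios scaling gave the same split (22.9% of all genes passing). Quantile normalization gave 9 higher and 4 lower (23.2%). The leading member was Hoxd13, with an interaction of 1.10 ± 0.07 (adjusted p = 8.37e-16), then Hoxd10 at 1.04 ± 0.17, Hoxd9 at 0.85 ± 0.21, Hoxd8 at 0.73 ± 0.18 and Hoxa13 at 0.61 ± 0.12. For Hoxd13 the genotypes differed in FDB and the leg values were near 0, and for Hoxa13 they differed in the leg and did not pass in FDB. Hoxb7 at 0.50 and Hoxa2 at 0.44 passed close to the threshold (adjusted p = 0.0474 and 0.0447). Hoxc8, Hoxc4, Hoxc6, Hoxc11, Hoxc10 and Hoxa10 had a lower foot minus leg difference in mdx, with interactions of −0.46 to −0.20. Of these, Hoxc8 and Hoxa10 lost the call under at least 1 of the other scalings. Without the libraries numbered 54 and above, Hoxa10 (adjusted p = 0.122), Hoxa2 (0.0599) and Hoxb7 (0.304) no longer passed. Without the 1 FDB library that held epidermis markers, Hoxa2 (adjusted p = 0.0572) and Hoxb7 (0.0650) no longer passed either.

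**Figure D4:**
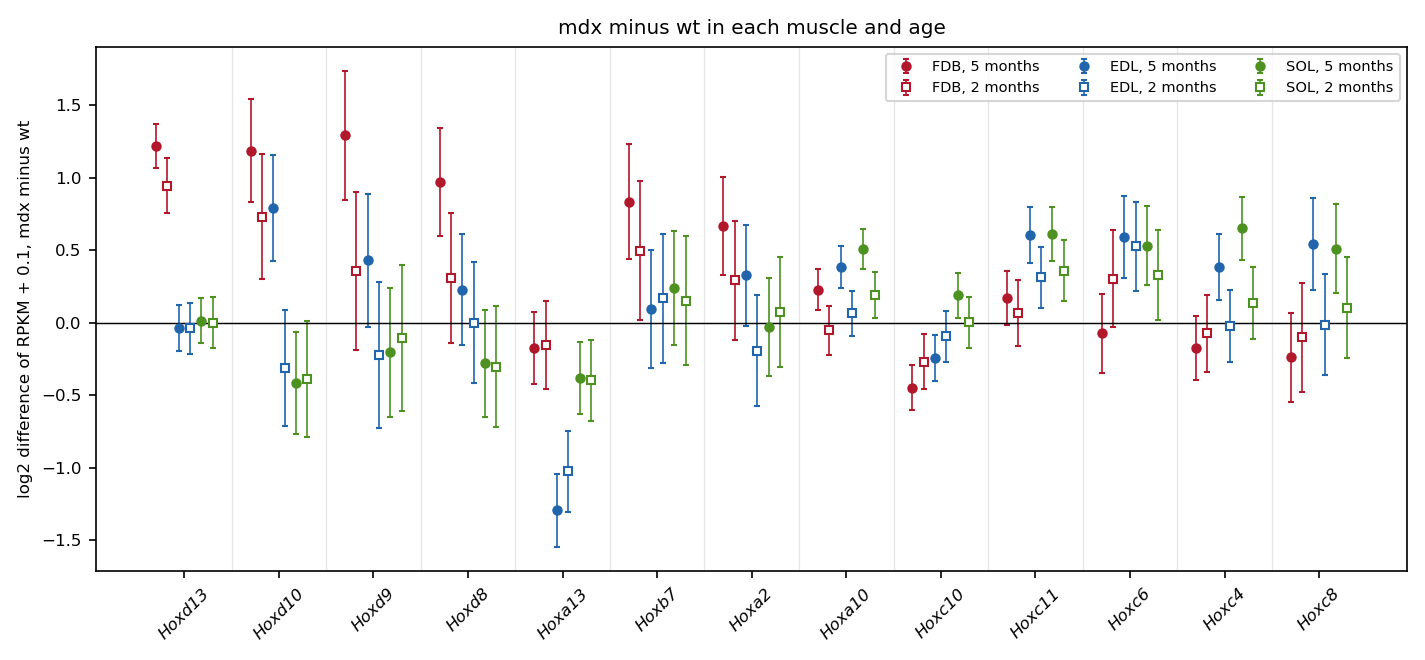
Difference of mdx minus wt on the log2(RPKM + 0.1) scale, with 95% intervals, for the 13 Hox genes whose foot minus leg difference changed with genotype; filled circles are 5 months, open squares 2 months, and colours are the muscles. Hoxd13 is 1.22 and 0.94 in FDB and near 0 in the leg, and Hoxa13 is −1.30 and −1.02 in EDL.

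The foot minus leg difference of Hoxd13 changed with age, by −0.47 ± 0.07 (5 minus 2 months, adjusted p = 1.93e-05), where 4.84% of all genes tested were higher and 5.37% lower at 5 months (10.2% together). No other member passed, and 2 members had an unadjusted p under 0.05. Without the libraries numbered 54 and above 6 members passed as lower (19.9% of all genes tested passing). With only those in mdx at 5 months 2 passed as lower (16.6%). In FDB its means were 3.33 ± 0.30 RPKM (SD, n = 7) at 5 months and 4.27 ± 0.87 RPKM (n = 3) at 2 months in mdx, and 1.38 ± 0.14 RPKM (n = 4) at 5 months and 2.15 ± 0.26 RPKM (n = 4) at 2 months in wt. Averaged over the muscles, mdx was higher at 5 months for 6 members and lower for 0, with 9 members at an unadjusted p under 0.05 in either direction, where 13.8% of all genes tested were higher and 22.5% lower (36.4% together). The 6 were Hoxc8, Hoxa3, Hoxc4, Hoxa9, Hoxa7 and Hoxc11, by 0.14 to 0.37, and Hoxa9, Hoxc4 and Hoxc8 passed also when the high-numbered libraries were left out and when the 5-month mdx groups were limited to them. The split was 6 higher and 7 lower without those libraries (42.2% of all genes passing) and 5 higher and 2 lower with only them (40.7%). In wt 1 member was higher and 8 lower at 5 months, where 6.04% of all genes were higher and 40.9% lower (46.9% together). Median-of-ratios scaling gave 4 higher and 5 lower there (47.5% of all genes passing), and quantile normalization 11 higher and 0 lower (40.8%). Hoxc10, higher by 0.14, was the only member that kept its call in all 3 scalings.

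Noncoding RNAs that lie in the Hox clusters were also measured. Of 10 tested, 5 were higher and 3 lower in FDB than in the leg, where 64.5% of all genes tested were higher and 19.1% lower. Their median was 0.25, against 0.29 for all genes tested. Hottip, which is transcribed beyond Hoxa13, was at 1.54 to 3.21 RPKM in FDB and 0 to 0.0513 RPKM in the leg, a difference of 4.21 ± 0.05. Hoxa11os, antisense to Hoxa11, was at 7.17 to 10.6 RPKM in FDB and 0.461 to 3.0 RPKM in the leg. Because strand use in the counting is not given in the sources used here, reads of Hoxa11 and Hoxa11os could have been assigned to either. Hotair, in the Hoxc cluster, was at 1.69 to 2.48 RPKM in FDB and 0.142 to 1.64 RPKM in the leg, and its foot minus leg difference was lower in mdx, with an interaction of −0.77 ± 0.13. Halr1 was lower in FDB, with a difference of −1.66 ± 0.10.

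Genes of the TALE homeodomain class and other limb genes were measured beside them. Some TALE proteins bind DNA together with Hox proteins. Of 11 TALE genes, 8 were higher and 1 lower in FDB, beside 64.5% and 19.1% of all genes tested. Their median was 0.43, against 0.29 for all genes. The lower one was Meis1, at 0.239 to 0.460 RPKM in FDB and 0.563 to 2.53 RPKM in the leg, with no overlap and a difference of −1.52 ± 0.05. Tgif1, Pbx3 and Meis3 were higher by 0.73, 0.72 and 0.65. Of 37 limb patterning genes, 27 were tested, and 21 were higher and 5 lower in FDB, beside the same 64.5% and 19.1% of all genes tested, with a median of 0.77. Zic1, a zinc finger transcription factor, was at 5.91 to 8.26 RPKM in FDB and 0.256 to 2.46 RPKM in the leg, a difference of 2.84 ± 0.07. Six2, a homeobox gene of tendon and other connective tissue precursors, was higher by 1.96 ± 0.07, though its FDB range of 3.05 to 5.85 RPKM overlapped the EDL values. Shox2, needed for growth of the upper limb in the embryo, was lower in FDB, with a difference of −1.58 ± 0.07, as was the homeobox gene Emx2, at −1.74 ± 0.07. Of 24 Polycomb and Trithorax genes, whose products keep Hox genes off or on, 18 were higher and 0 lower, beside 64.5% and 19.1% of all genes tested, with a median of 0.44 against 0.29 for all genes; at an unadjusted p under 0.05 none was lower either.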

How the data were processed

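RNA of whole FDB, EDL and SOL muscles was sequenced after poly(A) selection, per the labels' protocols. The authors deposited RPKM per gene for 55 libraries. Partek 6.6, TopHat2 2.1.0 and CASAVA 1.8.2 are listed in the submitters' processing notes with the mm10 build; the sources used here do not give the counting rules or strand use. Read depth was estimated from the value of 1 read and lay between 20.3 and 66.8 M reads; because 64.0 to 74.1% of low values came within 0.1 read of a whole number, no count test was run.

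RPKM values were tested as log2(RPKM + 0.1) with limma 3.58.1 in R 4.3.3 (12 group means, trended empirical Bayes), over the 16157 of 24453 genes that averaged 0.05 RPKM or more. P-values were two-sided and Benjamini-Hochberg adjusted within each of 18 comparisons, with a threshold of 0.05. Fold changes of low genes are understated on this scale. The fit was tested on simulated data. Every Hox gene was accounted for; those named are the members past the threshold in foot minus lower leg or with a group mean of at least 1 RPKM, and others are named where a comparison called them. One Hox gene stays in the counts and sums and is not reported here by itself. The members and gene lists were chosen with earlier results of these data known. Pseudocount, filters, median-of-ratios scaling, quantile normalization, leaving out each library and the library numbers were varied.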

Additional observations from a re-analysis of the deposited data

Results flagged for a closer look

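In 6 of 124 sets of values, each of 1 gene in 1 group, 1 library stood far from the others of its group; chance gives about 1 in 20. Hoxa13 was 1.03 RPKM in 1 mdx EDL library at 2 months, against 0.636 to 0.700 RPKM in the others of the group. Hoxa11 was 2.67 RPKM in 1 wt EDL library at 2 months, and the others were at 3.20 to 3.27 RPKM. Hoxd11 was 0.0576 RPKM in 1 mdx SOL library at 2 months, and the others were at 0.0949 to 0.0958 RPKM. In wt SOL at 5 months the same library held 3.95 RPKM of Hoxc11, where the others held 3.5 to 3.57 RPKM, and 2.86 RPKM of Hoxd8, where the others held 4.03 to 4.24 RPKM. Hoxc4 was 1.35 RPKM in 1 wt FDB library at 5 months, and the others were at 1.60 to 1.65 RPKM.

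Summed epidermis markers were 497 RPKM in 1 mdx FDB library at 5 months, against 2.40 to 3.36 RPKM in the other libraries of that group. Without that library the foot minus leg counts stayed at 10 higher and 17 lower.

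The foot minus leg difference differed between mdx and wt, by an interaction term in limma, for 13 members. It was higher in mdx by 1.10 for Hoxd13, 1.04 for Hoxd10, 0.85 for Hoxd9, 0.73 for Hoxd8, 0.61 for Hoxa13, 0.50 for Hoxb7 and 0.44 for Hoxa2. It was lower in mdx, with interactions of −0.46 for Hoxc8, −0.41 for Hoxc4, −0.38 for Hoxc6, −0.35 for Hoxc11, −0.32 for Hoxc10 and −0.20 for Hoxa10. Hoxc8 and Hoxa10 did not keep this call under both other scalings. Between ages the foot minus leg difference differed for Hoxd13, by −0.47 (5 minus 2 months).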

How the results depend on the processing

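Of the 27 members called in foot minus lower leg, 25 kept their sign and call under both other scalings. Hoxa7 and Hoxa9 reversed, at −0.21 and −0.15 with median-of-ratios scaling and −0.26 and −0.19 with quantile normalization, where the median of all genes moves. Counts of called members moved by over 1.5 times as follows, and the cause was not tested. With a pseudocount of 1, mdx minus wt in SOL at 2 months gave 1 (35.3% of all genes passing). With a minimum mean of 0.5 RPKM, which tests fewer members, foot minus leg in wt at 5 months gave 15 (75.4% of all genes passing). With no filter mdx minus wt in FDB at 2 months gave 5 (19.6%). Median-of-ratios scaling gave 7 in EDL at 5 months, and quantile normalization gave 15 in EDL and 5 in SOL at 2 months. Without the 5-month mdx libraries numbered 54 and above, mdx minus wt gave 8 in FDB and 9 in EDL at 5 months and 7 in FDB and 6 in SOL at 2 months, the age interaction gave 6, and 5 minus 2 months in mdx gave 13. The share of all genes tested that passed moved as well. In the same order of comparisons it was 48.2%, 55.7%, 34.8%, 42.3%, 19.9% and 42.2%. With only those 5-month mdx libraries, mdx minus wt gave 25 in FDB and 8 in SOL at 5 months and 7 in FDB and 8 in SOL at 2 months, the genotype interaction gave 21 and the age interaction 2. Of all genes tested 67.1%, 57.5%, 41.1%, 47.4%, 31.9% and 16.6% passed in these comparisons, in the same order.

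Leaving out each library in turn gave 27 to 29 called members for foot minus leg, 26 to 27 in mdx at 5 months, 15 to 20 in mdx at 2 months, 21 to 24 in wt at 5 months and 17 to 20 in wt at 2 months. It gave 24 to 27 for FDB minus EDL, 29 to 30 for FDB minus SOL and 29 to 30 for EDL minus SOL. For mdx minus wt it gave 15 to 21 in FDB, 11 to 15 in EDL and 9 to 15 in SOL at 5 months, and 1 to 4 in FDB, 3 to 5 in EDL and 1 to 3 in SOL at 2 months. It gave 10 to 15 for the genotype interaction, 1 to 2 for the age interaction, 5 to 8 for 5 minus 2 months in mdx and 8 to 12 in wt. Libraries that moved a count by over 1.5 times were ns04 (1 in FDB at 2 months), ns17 and ns25 (1 each in SOL at 2 months), ns29 (9 in SOL at 5 months) and ns01 and ns60 (2 each for the age interaction). The share of all genes tested that passed without each library is not given here. These counts therefore do not show whether the members moved more than other genes.

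No paired analysis was possible because the table's columns carry library numbers and not the replicate numbers of the labels. Members under about 0.1 RPKM rest on few reads, and their differences are limited by depth.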
